A study of Mus musculus with 24 samples.

Results

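The hypothalamus lies against the choroid plexus of the third ventricle, the pituitary and the thalamus, and a hypothalamic sample can hold RNA of these neighbours. The values described here are those of 9 marker genes of the 3 tissues, listed by name with earlier results of these data known. They are *Ttr*, *Clic6*, *Kl*, *Folr1* and *Kcnj13* for the choroid plexus, *Gh* and *Prl* for the pituitary, and *Tcf7l2* and *Prkcd* for the thalamus. Of the 9, the 8 in the table of 13998 genes were analysed, and *Prl* was not analysed here. None of the 8 genes lies on Chr 17, which carries the segment that differs between the genotypes. The question was how far each marker varied between mice of the same genotype, whether markers of 1 tissue varied together, and whether their levels differed between genotypes.

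The samples were hypothalami of 24 male F2 mice from a cross of C57BL/6J with the subcongenic strain B6.CAST-17.1, which carries a segment of Chr 17 from the wild-derived CAST strain on a C57BL/6J background. Across that segment 12 mice were *cast/cast* and 12 were *b6/b6*, and all 24 were *b6/b6* elsewhere. The mice were 10 to 16 weeks old at the start of a 10 d choice between a carbohydrate/protein and a fat/protein diet, later had these diets back for about 48 h, and were fasted for 4 h before the tissue was taken. They had been picked from the tails of carbohydrate intake, high in *cast/cast* and low in *b6/b6*, so genotype and intake cannot be told apart between the groups. The tissue was lifted by eye from the ventral face of the brain, with the optic chiasm and the pituitary as landmarks. Each mouse gave 1 library, and the mice are numbered within genotype in the order of the deposited records, as names only.

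Gene expression was measured by SAGE-Seq, which counts a short tag cut from the 3′ end of each transcript, so that a transcript gives 1 tag whatever its length. Between 7754202 and 13082873 tags fell on genes per mouse, and values are normalized tag hits, that is, hits divided by the size factor of the library. *Pmch*, the precursor of melanin-concentrating hormone and a marker of the lateral hypothalamus, was present at 2388 to 22154 in the 24 mice. The summed level of 22 listed hypothalamus genes ran from 6389 to 37143 in *cast/cast* and from 12108 to 32851 in *b6/b6*. Some of them were low in single *cast/cast* mice, such as *Agrp* at 15.1 (median 1208) and *Hcrt* at 20.2 (median 657). These 2 genes were picked after their values were seen. None of the 276 pairs of libraries agreed within sampling noise (lowest chi-square per degree of freedom, 14.6). The libraries of *cast/cast* mice 4 and 6 and of *b6/b6* mice 6 and 12 stood apart. Their median correlations with the others were 0.835 to 0.894, against 0.907 to 0.950 for the other 20. Some results that rest on the libraries that stood apart are also given without them.

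The choroid plexus is the folded epithelium that secretes cerebrospinal fluid. *Ttr* encodes transthyretin, the carrier of thyroid hormone that this epithelium makes in very large amounts, *Folr1* the folate receptor that moves folate into the fluid, *Kcnj13* an inwardly rectifying potassium channel, *Clic6* a protein of the chloride intracellular channel family, and *Kl* the ageing-related protein klotho. *Gh* encodes growth hormone, the product of the somatotropes of the anterior pituitary. *Tcf7l2*, a transcription factor at the end of Wnt signalling, marks much of the adult thalamus and is also made by young oligodendrocytes, and *Prkcd* encodes a protein kinase C that is dense in thalamic relay nuclei.

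The tags are what the assay counts, so those expected from the 3′-most NlaIII site of the members' transcripts are shown for the markers on which the results turn, with the recognition site in capitals.
Clic6: CATGaatgaggaaatgtgagcttgcaa
Kl: CATGtgatacgtaggcatacatcttct
Kcnj13: CATGttacatcaccgatttgcagctct
Gh: CATGaagtgtcgccgctttgtggaaag
Prkcd: CATGtaggagactggtgatgtgttgac
Tcf7l2 a: CATGttttgctgtgatgttacatagat
Tcf7l2 b: CATGattctaccaaaatttttatcaac
Tcf7l2 c: CATGgtgttgttcttttgggggggagg
Tcf7l2 d: CATGcctgccgttctggattaataaaa
Each tag was the last of only its own gene among the annotated transcripts of GENCODE M21, and the sequence is given 5′ to 3′ on the strand of the gene. On GRCm38 they lie at chr16:92540765-92540791 (*Clic6*, plus strand), chr5:150993512-150993538 (*Kl*, plus) and chr14:30595527-30595553 (*Prkcd*, minus), in 3′ UTRs. Those of *Kcnj13* (chr1:87386594-87386620, minus) and *Gh* (chr11:106300382-106300408, minus) lie in coding sequence. The 8 *Tcf7l2* transcripts matched ended in 4 different tags, all in 3′ UTRs, from chr19:55932070-55932096 (b) through chr19:55932470-55932496 (c) and chr19:55933068-55933094 (a) to chr19:55933612-55933638 (d). The table holds 1 set of values for *Tcf7l2*, so the tags of its ends could not be separated. In *Folr1* (chr7:101858330-101870788, minus) the last such site lies 18 bases from the annotated transcript end, too near for a whole tag. Which tags were in fact assigned to each gene is not given in the sources used here.

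Across mice of the same genotype the pituitary marker *Gh* varied most, *Kcnj13* and *Ttr* were high in single mice, *Prkcd* was high in 2 *b6/b6* mice, and the steadiest marker was *Prkcd* in *cast/cast* and *Kl* in *b6/b6*. Taking a gene as wide where the highest mouse had at least 4 times the lowest on the scale of value + 1, 6 of the 8 markers were wide within *cast/cast*, against 40.4% of all genes, and 7 of the 8 within *b6/b6*, against 42.9%. The markers near this limit were *Clic6* (4.17 in *cast/cast* and 4.15 in *b6/b6*), *Tcf7l2* in *cast/cast* (4.23) and *Ttr* in *b6/b6* (4.17), and without any 1 mouse the counts were 4 to 6 and 5 to 7. In a bulk sample, fewer cells of a type and less RNA per cell cannot be told apart.

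**Figure D1:**
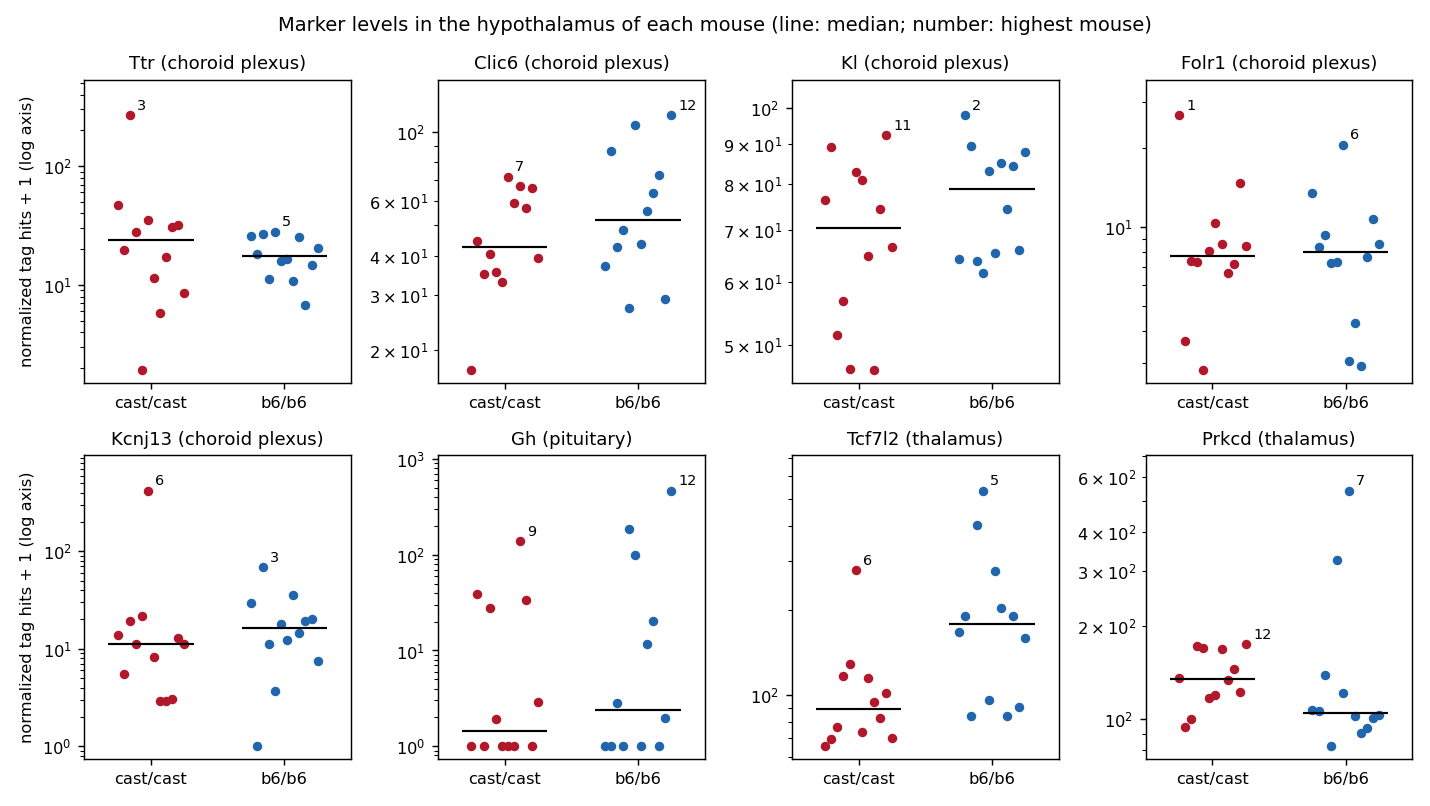
Level of each of the 8 markers in each mouse, as normalized tag hits + 1 on a log axis, with *cast/cast* mice in red, *b6/b6* mice in blue, a line at the median and the number of the highest mouse. Single mice lie far above the rest for *Ttr* (mouse 3) and *Kcnj13* (mouse 6) in *cast/cast*, and *Gh* splits the mice into those near 0 and those with many hits.

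*Ttr* was low in nearly every library. In *cast/cast* mice it ranged from 0.910 in mouse 5, a single hit, through a median of 22.7 to 268 in mouse 3, while the next highest mouse had 46.3. In *b6/b6* mice it ranged from 5.74 through 16.4 to 27.1, so that no *b6/b6* mouse came near *cast/cast* mouse 3. The SD of its log2 value, 1.77 in *cast/cast*, was the 112th largest of the 13998 genes there, and 0.63 in *b6/b6* ranked 5526th. Without mouse 3 the SD in *cast/cast* was 1.38. The wider scatter in *cast/cast* had P = 0.0385 for the difference of mean absolute deviation from the median (two-sided permutation test) and did not pass adjustment over the 8 markers (adjusted P = 0.308), and neither did that of any other marker.

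*Kcnj13* showed the most isolated value. In *cast/cast* mouse 6 it reached 419, from 353 hits, against 20.9 in the next mouse and a median of 10.2, and the lowest was 1.89. In *b6/b6* mice it ran from 0 in mouse 2 through a median of 15.2 to 68.2 in mouse 3. The library of *cast/cast* mouse 6 is among the 4 that stood apart, and without it the SD of log2 *Kcnj13* in *cast/cast* fell from 1.94 to 1.09. The same library also had the highest *Ptgds*, the prostaglandin D synthase of the leptomeninges and choroid plexus, at 34572 against 4923 in the next *cast/cast* mouse, and the highest *Slc22a8*, an organic anion transporter of brain barriers, at 186 against 87.9. In *cast/cast* mouse 3, where *Ttr* was highest, *Kcnj13* was 18.3, and in *cast/cast* mouse 6 *Ttr* was 34.4.

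*Folr1* was near the limit of detection, from 1.82 to 25.8 in *cast/cast* (median 6.77) and from 1.93 to 19.6 in *b6/b6* (median 7.03), with 2 mice of each genotype at 3 hits or fewer. Its highest mice, *cast/cast* 1 and *b6/b6* 6, differed from those of *Ttr* and *Kcnj13*. *Clic6* was detected well in all mice, at 16.1 to 70.6 in *cast/cast* (median 41.5) and 26.2 to 112.0 in *b6/b6* (median 51.0). The highest *Clic6* was in *b6/b6* mice 12 and 6 (112.0 and 104), both among the libraries that stood apart, and the highest remaining value was 85.9 in *b6/b6* mouse 2.

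*Kl* was the steadiest of the markers listed for the choroid plexus. It ranged from 45.4 to 91.4 in *cast/cast* (median 69.4) and from 60.6 to 97.0 in *b6/b6* (median 77.8), and 95.7% of all genes had a larger SD of log2 values in *b6/b6* and 78.7% in *cast/cast*. The 5 choroid plexus markers thus had 5 different highest mice in *cast/cast*, namely 3 for *Ttr*, 7 for *Clic6*, 11 for *Kl*, 1 for *Folr1* and 6 for *Kcnj13*. In *b6/b6* they were mice 5, 12, 2, 6 and 3. The medians of *Kl* and *Clic6* were above that of *Ttr* in *cast/cast* (69.4 and 41.5 against 22.7). The same held in *b6/b6* (77.8 and 51.0 against 16.4). *cast/cast* mouse 5, with 1 hit of *Ttr*, had 50 hits of *Kl* and 38 of *Clic6*. Whether the *Kl* and *Clic6* tags came from choroid plexus was not tested.

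*Gh* divided the mice into those with hardly any hit and those with many. At 3 hits or fewer, the smallest signal taken as detectable, were 8 of 12 *cast/cast* and 7 of 12 *b6/b6* mice, with 6 and 5 mice at 0. The remaining *cast/cast* mice were 9 at 138, 2 at 38.3, 10 at 33.1 and 4 at 26.7. The remaining *b6/b6* mice were 12 at 467, 5 at 184, 6 at 98.1, 9 at 19.3 and 8 at 10.6. Its SD of log2 values ranked 5th of 13998 genes in *cast/cast* and 2nd in *b6/b6*, at 2.69 and 3.32. Among the mice with *Gh*, *cast/cast* 4 and *b6/b6* 6 and 12 are libraries that stood apart, and without the 4 libraries the SDs were 2.75 and 2.57.

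Other hormone genes of the pituitary were high in other mice. *Cga*, the common alpha subunit of the pituitary glycoprotein hormones, was highest in *cast/cast* mice 1, 11 and 12 (265, 148 and 118), where *Gh* was 0, 0 and 1.87. *Fshb*, the beta subunit of follicle-stimulating hormone, was highest in *cast/cast* mouse 12 (94.5) and *b6/b6* mouse 10 (79.5), where *Gh* was 1.87 and 0. Of the 4 *cast/cast* mice with *Gh* above 3 hits and the 6 with *Cga* above 3 hits, 1 mouse was common to both, and in *b6/b6*, of 5 and 7 mice, again 1. *Cga* and *Fshb* were above 3 hits together in all 4 *cast/cast* and all 5 *b6/b6* mice that had *Fshb*. These 2 genes, like *Ptgds*, *Slc22a8*, *Gbx2*, *Ramp3* and *Slc17a7*, were set beside the markers after their values were seen.

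**Figure D2:**
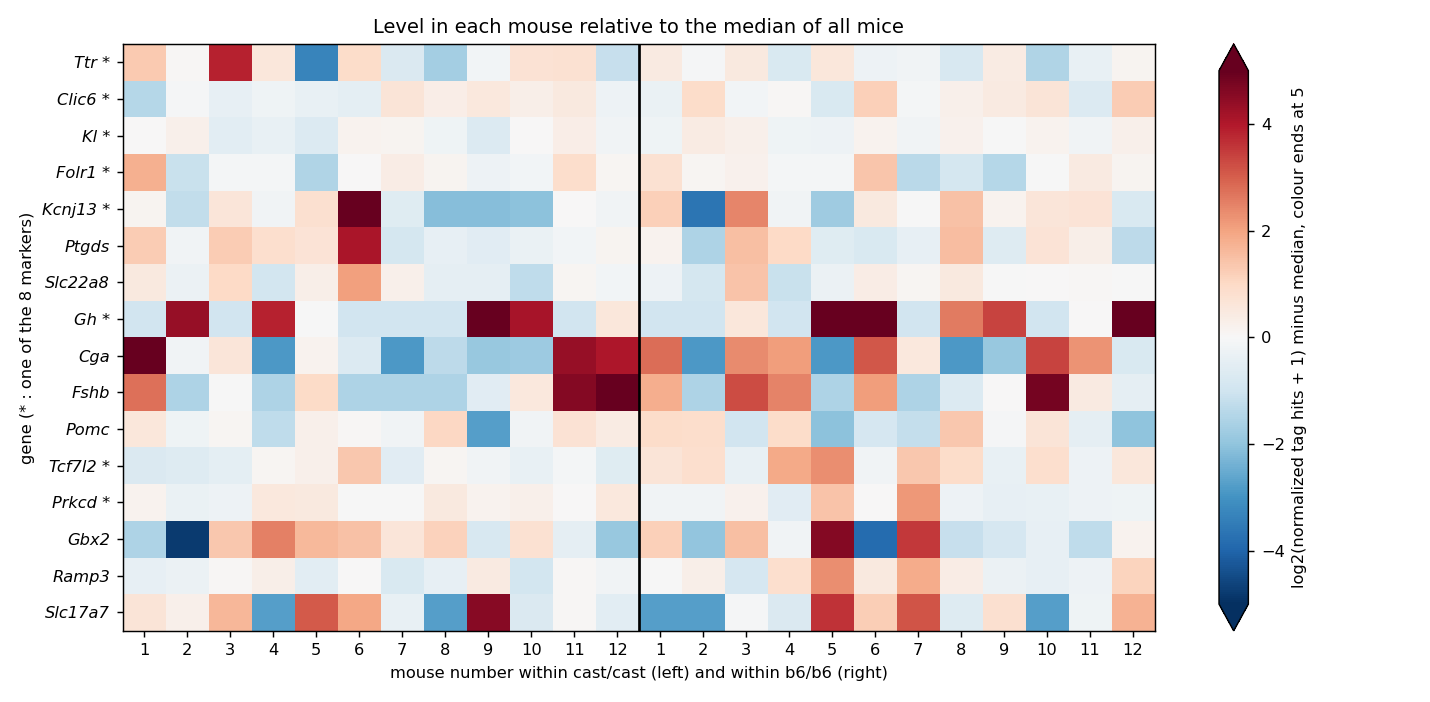
Level of the 8 markers (asterisks) and 8 further genes in each of the 24 mice, as log2(normalized tag hits + 1) minus the median of all mice, with red above and blue below the median and colours ending at 5 on either side. High *Gh* (*cast/cast* 9, *b6/b6* 5, 6 and 12) and high *Cga* (*cast/cast* 1, 11 and 12) fall mostly in different columns, and *Gbx2* and *Ramp3* are high in *b6/b6* mice 5 and 7.

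The thalamus markers were present in every library, and their spread differed in kind. *Prkcd* lay between 93.5 and 173 in *cast/cast* mice (median 134), a narrow range. In *b6/b6* mice it was 541 in mouse 7 and 323 in mouse 5, and the other 10 mice lay between 81.0 and 137 (median of all 12, 104). Its SD of log2 values was 0.82 in *b6/b6*, 0.53 without mouse 7, and 0.30 in *cast/cast*, where 86.4% of genes had a larger one. Neither of these *b6/b6* libraries is among the 4 that stood apart.

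In the same 2 *b6/b6* mice, some other thalamic genes were high as well. Of 25 further thalamus genes listed, 6 had mice 5 and 7 as the 2 highest of *b6/b6* and 9 were highest in mouse 5, while the other 16 were highest in mice other than these. The share of all genes with these patterns was not counted, so the counts cannot be read as particular to thalamus genes. *Gbx2*, a homeobox gene needed for thalamic development, was 660 in mouse 5 and 322 in mouse 7 against a *b6/b6* median of 21.9, and *Ramp3*, a partner of calcitonin-family receptors, was 182 and 132 against a median of 45.4. *Slc17a7*, the vesicular glutamate transporter of cortical neurons, was also highest of the *b6/b6* mice there, at 82.3 and 59.1 against a median of 5.19, and in *cast/cast* it was highest in mouse 9 at 156. The part of adjoining tissue in these values was not tested. The rank correlation of *Prkcd* with *Gbx2* was 0.21 in *cast/cast* and 0.47 in *b6/b6*, and 0.09 in the 10 *b6/b6* mice other than 5 and 7.

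*Tcf7l2* ranged from 64.6 to 277 in *cast/cast* (median 87.6) and from 83.0 to 533 in *b6/b6* (median 178). The highest *cast/cast* mouse was again number 6, at 277, and the next had 127. In *b6/b6*, mice 5, 4 and 7 had 533, 402 and 276, of which 5 and 7 were also the mice high in *Prkcd*, whereas mouse 4 had the lowest *Prkcd* of its genotype, 81.0. The SD of log2 values was 0.88 in *b6/b6* and 0.58 in *cast/cast*, and 0.34 in *cast/cast* without mouse 6.

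**Figure D3:**
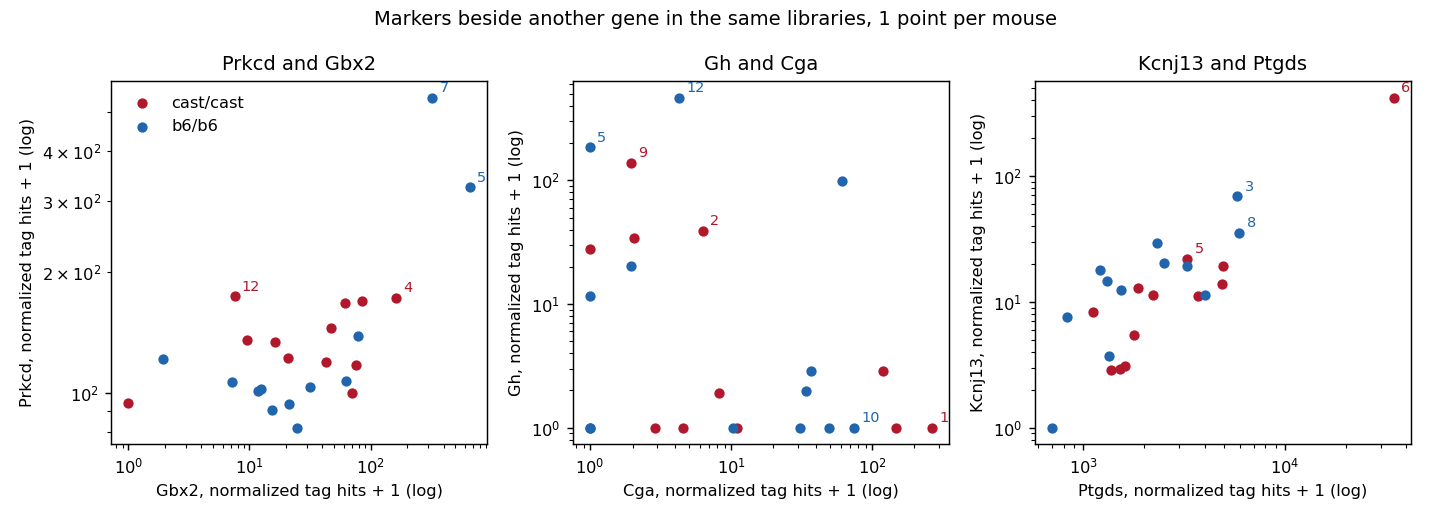
*Prkcd* against *Gbx2*, *Gh* against *Cga* and *Kcnj13* against *Ptgds* in each mouse, as normalized tag hits + 1 on log axes, with *cast/cast* in red, *b6/b6* in blue and selected mice numbered. In the left panel *b6/b6* mice 5 and 7 lie apart at the top right, in the middle panel the mice with high *Gh* lie at low *Cga* with the exception of *b6/b6* mouse 6 (98.1 and 60.7), and in the right panel *cast/cast* mouse 6 lies apart.

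Whether markers of 1 tissue varied together was tested across the 12 mice of each genotype, for the 21 pairs of the 7 markers other than *Gh*, whose mice fall into separate clusters. None of the 42 correlations passed at an adjusted P of 0.05 (permutation test, 100000 resamples, Benjamini-Hochberg over the 42), and 3 had an unadjusted P under 0.05. Among the 10 pairs of choroid plexus markers, Pearson's r had a median of 0.11 in *cast/cast* (from -0.48 to 0.42) and -0.02 in *b6/b6* (from -0.25 to 0.75). For *Tcf7l2* and *Prkcd* r was 0.13 in *cast/cast* and 0.44 in *b6/b6* (rho = 0.22 and 0.15, adjusted P = 0.919 and 0.809). Among the 10 pairs of a choroid plexus and a thalamus marker the medians were -0.09 and -0.30, with 1 positive pair in each genotype.

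The strongest pair was *Clic6* and *Kl* in *b6/b6* mice, with r = 0.75 (permutation P = 0.00730, adjusted P = 0.307; rho = 0.62, P = 0.0345). Without mice 12 and 6, the farthest from the median of *Clic6*, r was again 0.75, and in *cast/cast* it was 0.05. With libraries rescaled to the same total the *b6/b6* pair passed (r = 0.84, adjusted P = 0.0315). *Kcnj13* and *Tcf7l2* had r = 0.70 in *cast/cast* (P = 0.0427, adjusted P = 0.597; rho = 0.23, P = 0.472), and this rested on mouse 6, since without mice 6 and 9 r was 0.05.

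*Ttr* and *Prkcd* had r = -0.61 in *cast/cast* (P = 0.0316, adjusted P = 0.597; rho = -0.52, P = 0.0901) and -0.35 without mice 5 and 3, so the relation weakened without those mice. *Clic6* and *Kcnj13* in *cast/cast*, with r = -0.48 (P = 0.114), had the rank correlation with the lowest P, rho = -0.76 (P = 0.00607), which did not pass adjustment over the 42. In the 21 tests of whether r differed between genotypes, the lowest adjusted P was 0.187, for *Ttr* and *Prkcd*.

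**Figure D4:**
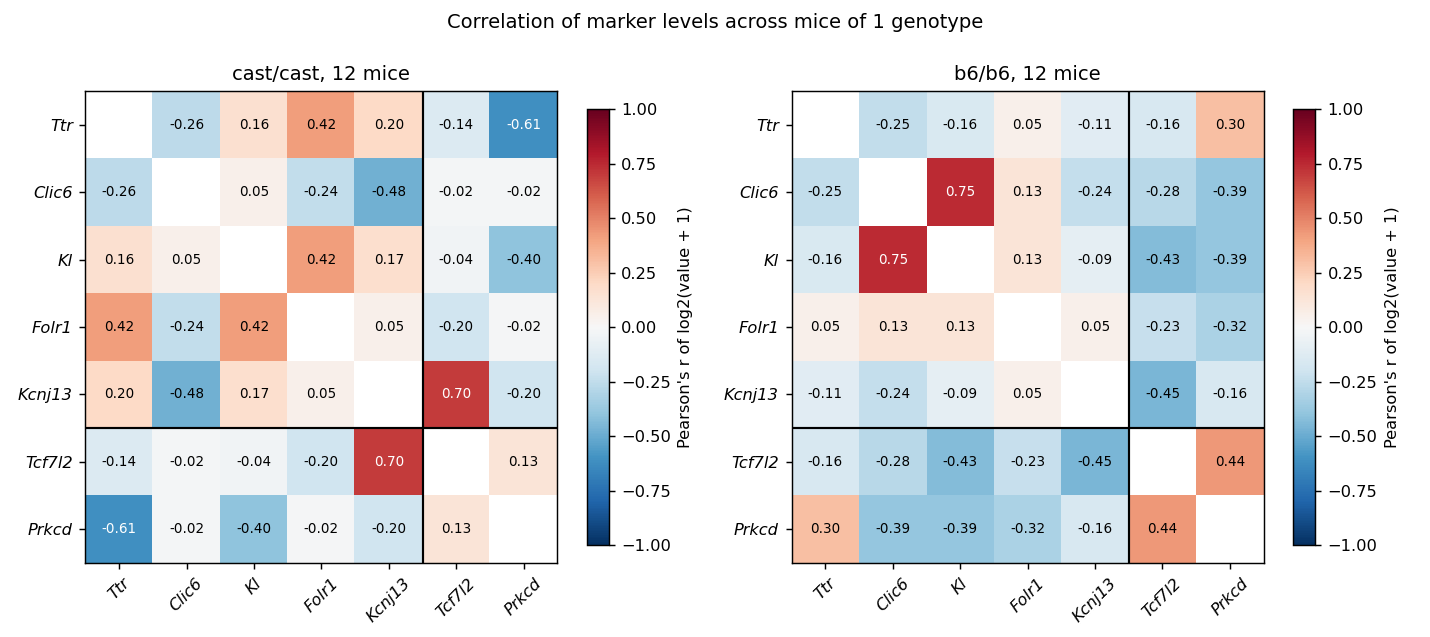
Pearson's r between the log2 values of each pair of 7 markers across the 12 mice of each genotype, with black lines between choroid plexus and thalamus markers. The values within the choroid plexus block scatter around 0 apart from *Clic6* and *Kl* in *b6/b6* (0.75).

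Relations of each marker to the order of the study, the depth of the library and the intake of the mouse were tested within genotype, and none of the 42 passed adjustment. The mice were tested in several cohorts, which the labels do not give. Of the labels that order them, study number was tested and colony number was not. Study numbers ran from 15 to 270 in *cast/cast* and from 27 to 364 in *b6/b6*. *Ttr* in *cast/cast* was lower at higher study numbers, with r = -0.66 (permutation P = 0.0155, adjusted P = 0.650; rho = -0.73, P = 0.00925) and -0.46 without the 2 mice farthest from the median study number. *Tcf7l2* in *b6/b6* was higher at higher study numbers, with r = 0.53 (permutation P = 0.0758, adjusted P = 0.922) and rho = 0.61 (permutation P = 0.0392). Without the 2 farthest mice its r was 0.48. With carbohydrate/protein intake r lay between -0.43 and 0.32 (lowest P = 0.164), and with the library total between -0.54 and 0.48 (lowest P = 0.0692).

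Between genotypes, *Tcf7l2* was lower in *cast/cast* and no other marker was called. A gene was called at an unadjusted P of at most 0.01 by limma on log2(value + 1) and a ratio of mean values of at least 1.5, which 1.01% of all genes met with lower and 0.471% with higher values in *cast/cast*. Of the 8 markers, 1 was called lower and 0 higher, and 1 of 8 had an unadjusted P under 0.05. *Tcf7l2* averaged 105 ± 57.9 in *cast/cast* and 206 ± 138 in *b6/b6* (mean ± SD, n = 12 each), a ratio of 0.510. The log2 fold change was -0.84 ± 0.29 (SE, P = 0.00710), and the adjusted P over all genes was 0.449. The groups overlapped, with 6 of 12 *cast/cast* mice below every *b6/b6* mouse and 10 of 12 *b6/b6* mice above the *cast/cast* median.

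The *Tcf7l2* call lay close to its threshold. With study number as a covariate the log2 fold change was -0.72 (P = 0.0185). The highest study number of *cast/cast* was 270, and *b6/b6* mice 1, 2, 4, 5, 8 and 10 lay above it. These mice had *Tcf7l2* of 166 to 533, and the other *b6/b6* mice had 83.0 to 276. The part of study order in the genotype difference was not tested further. Leaving out 1 mouse at a time kept the direction in all 24 fits and the call in 12. It was lost without *cast/cast* mouse 1, 2, 3, 7, 10 or 12, with P from 0.0112 to 0.0131, and without *b6/b6* mouse 2, 4, 5, 7, 8 or 10, with P from 0.0107 to 0.0158. The log2 fold change in these 12 fits lay between -0.82 and -0.69, close to that with all mice. Without the 4 libraries that stood apart it was -1.11 (P = 0.000753), and the count tests gave -0.98 (edgeR, P = 0.00288) and -0.97 (DESeq2, P = 0.00136).

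The other 7 markers had unadjusted P from 0.230 (*Kl*) to 0.858 (*Prkcd*) in the limma fit. *Prkcd* averaged 137 ± 28.3 in *cast/cast* and 158 ± 137 in *b6/b6*, with a log2 fold change of 0.04 ± 0.24 (P = 0.858). *Gh* averaged 19.9 ± 39.9 and 65.1 ± 138 (-0.72 ± 1.13, P = 0.527), and it was 0.21 without the 4 libraries that stood apart. The 5 choroid plexus markers had log2 fold changes from -0.31 (*Clic6*, SE 0.25, P = 0.233) to 0.24 (*Ttr*, SE 0.50, P = 0.633). *Ttr* and *Kcnj13* had higher means in *cast/cast* (41.2 and 43.4 against 17.4 and 19.1). Without mouse 3 the *cast/cast* mean of *Ttr* was 20.6, still above that of *b6/b6*, and without mouse 6 that of *Kcnj13* was 9.29, below it. The count tests, which weigh such single values differently, gave *Ttr* 1.24 with edgeR (P = 0.0293) and 1.25 with DESeq2 (P = 0.0159), and *Kcnj13* 1.11 with edgeR (P = 0.159) and -1.01 with DESeq2 (P = 0.0368), none of them called. Each tool called 1 of the 8 markers, *Tcf7l2*.

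**Figure D5:**
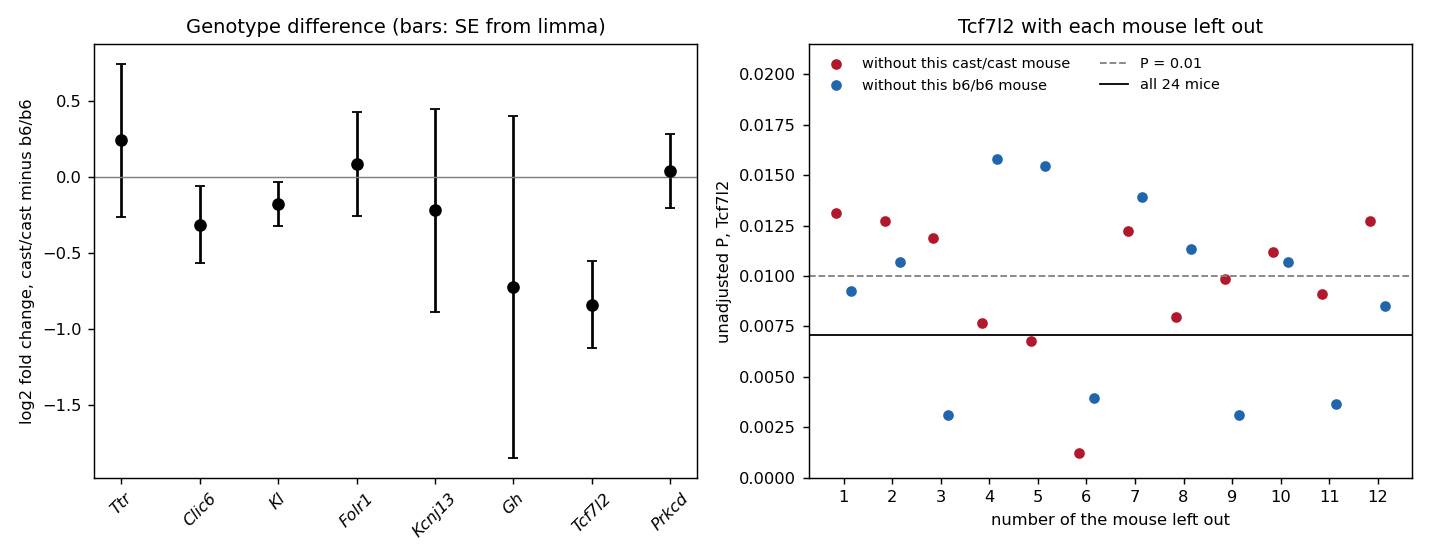
Left, log2 fold change of each marker, *cast/cast* minus *b6/b6*, with its SE from limma over 24 mice. Right, the unadjusted P of *Tcf7l2* with each mouse left out in turn (red, a *cast/cast* mouse left out; blue, a *b6/b6* mouse), where 12 of the 24 points lie above the dashed line at 0.01.

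Further genes of the same tissues were read from lists chosen with earlier results known. Of 28 listed choroid plexus genes in the table, 13 pituitary, 25 thalamus and 22 hypothalamus genes, none was called between genotypes in either direction. Their median log2 fold changes were -0.08, -0.10, -0.05 and 0.03, against -0.02 over all genes. None was called either of 9 ependymal, 11 meningeal, 10 myelin and 9 cortical and striatal genes, with medians of 0.35, 0.01, -0.14 and 0.01. Here and next *cast/cast* is given before *b6/b6*. Of all genes, 50.3% and 48.3% had a positive rank correlation with *Tcf7l2* (medians of 0.01 and -0.01). *Tcf7l2* had positive rank correlations with 16 of the 25 thalamus genes in each genotype (medians of 0.22 and 0.20). Its medians were negative with the myelin (-0.40 and -0.35), hypothalamus (-0.42 and -0.07), ependymal (-0.39 and -0.12), meningeal (-0.05 and -0.43) and pituitary genes (-0.28 and -0.13), and -0.03 and 0.01 with the choroid plexus and 0.08 and -0.14 with the cortical and striatal genes.

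Rank correlations of the choroid plexus genes with *Ttr* had both signs. Within *cast/cast* 14 of the 28 had a positive rank correlation with *Ttr* (median 0.01) and within *b6/b6* 9 of 28 (median -0.21), where the median over all genes was 0 and -0.01. The highest in *cast/cast* was *Igf2*, an insulin-like growth factor of choroid plexus and meninges, at 0.85. By the mean of both genotypes the highest were *Car12* and *Igf2* (0.30 and 0.28) and the lowest *Rdh5* (-0.37). In *b6/b6* the rank correlation of *Igf2* with *Ttr* was negative (-0.29), and that of *Car12* was 0.41. *Car12* encodes a carbonic anhydrase and *Rdh5* a retinol dehydrogenase. Of the 11 meningeal genes, 10 in *cast/cast* and 4 in *b6/b6* had a positive rank correlation with *Ttr* (medians of 0.55 and -0.06).

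Meningeal genes had higher rank correlations with *Kcnj13* than the listed choroid plexus genes in their median, a difference that was not tested. Of the 11 meningeal genes in the table, 9 in *cast/cast* and 10 in *b6/b6* had a positive rank correlation with *Kcnj13*, with a median of 0.48 in each, whereas 19 and 15 of the 28 choroid plexus genes did (medians of 0.19 and 0.06). Of all genes, 48.5% in *cast/cast* and 48.8% in *b6/b6* did. The summed level of the meningeal genes was 245 to 2347 in *cast/cast* (median 515) and 370 to 1313 in *b6/b6* (median 528). Its highest mice were *cast/cast* 6 and *b6/b6* 3, the same as those of *Kcnj13*. In *cast/cast* mouse 6, *Col1a1*, a collagen of fibroblasts, was 935 against 300.3 in the next mouse and a median of 94.9. Without the 4 libraries that stood apart, the summed level reached 1295 in *cast/cast*, in mouse 1, and 8 of the 11 meningeal genes in *cast/cast* and 10 in *b6/b6* had a positive rank correlation with *Kcnj13* (medians of 0.39 and 0.68), against 16 and 17 of the 28 choroid plexus genes (0.04 and 0.06). Their part in the *Kcnj13* values was not tested.

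The thalamus genes followed *Prkcd* in part. Positive rank correlations were found for 15 of the 25 in *cast/cast* (median 0.10) and 19 of the 25 in *b6/b6* (median 0.25), against medians over all genes of -0.01. By the mean of both genotypes the highest were *Calb2*, the calcium-binding protein calretinin (0.63), *Lhx9*, a LIM homeobox gene (0.48), *Gbx2* (0.34), *Amotl1* (0.32) and *Tnnt1* (0.28), and the lowest was *Slitrk6* (-0.16). The medians with *Prkcd*, *cast/cast* before *b6/b6*, were -0.23 and 0.32 for the myelin and -0.04 and 0.25 for the cortical and striatal genes. They were -0.33 and 0.15 for the meningeal and -0.15 and 0.03 for the choroid plexus genes. For the hypothalamus, ependymal and pituitary genes they were 0.01 and -0.01, -0.10 and -0.15, and -0.11 and -0.12. In *b6/b6* a positive median was thus not particular to the thalamus genes. The summed level of the 25 thalamus genes moved little, from 14603 to 19996 in *cast/cast* and from 13447 to 21930 in *b6/b6*, with *b6/b6* mouse 5 the highest. This sum weighs abundant genes most, such as *Slc17a6* (mean 5519) and *Calb2* (mean 2541). It says little about genes such as *Gbx2*, which ran from 0 to 160 in *cast/cast* and from 0.93 to 660 in *b6/b6*.

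Over 11987 genes with a mean of at least 20, the genes whose ranks were most like those of a marker were found by the mean of the rank correlations within the 2 genotypes (12 mice each). They are a description of these libraries, which differ in depth and whose tissue was lifted by eye. For *Ttr* they reached only 0.58 (*Rassf4*), and *Spef1*, *Laptm4a* and *Rab37* had 0.56 to 0.53, none of them a listed choroid plexus gene. For *Tcf7l2* they were *Fign* (0.86), *Endod1*, *Cinp*, *Mtmr9* and *Hnrnpul2* (0.84 to 0.83), and for *Prkcd* *Gpatch4* and *Prodh* (0.73), *BC037034*, *Sdc3* and *Ntsr1* (0.69 to 0.67).

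For the other markers, for which this ranking was added after the data were seen, the leading gene was *Thbd*, the endothelial anticoagulant thrombomodulin, for *Kcnj13* (0.86). It was followed by *Ifitm1*, *Fgfbp1*, *Ranbp3l* and *Plin3* (0.83 to 0.78), and all 5 were highest in *cast/cast* mouse 6. Without the 4 libraries that stood apart the means of these 5 genes were 0.81 to 0.85. The leading gene was *Pcdhb18* for *Clic6* (0.82), *Psmb9* for *Folr1* (0.77) and *Plekhf2* for *Kl* (0.69). Apart from *Kcnj13*, the genes most like a marker are given with all mice only. The markers themselves were left out of this ranking, and among them the highest mean rank correlation was 0.34, for *Clic6* and *Kl*.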

How the data were processed

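Hypothalamus RNA of 24 mice was measured by SAGE-Seq. The deposited table holds signal values, namely tag hits per gene that the authors scaled by library size factors (DESeq) after mapping to RefSeq mRNA and GRCm38 with software of the SOLiD SAGE kit. Other deposited columns hold the authors' comparisons and were not used. The 19529 rows gave 13998 genes, the lowest with a mean of 6.03. All values (100%) were whole multiples of the value of 1 hit within 0.01, so hits were recovered. Library totals had medians of 10383038 (*cast/cast*) and 10032338.5 (*b6/b6*), and floors of 3 hits cover counting error only, since tags carry no molecular identifiers.

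The members and lists were chosen with earlier results of these data known. Genes with a mean of at least 5 were fitted with limma 3.58.1 (lmFit, eBayes with a trend) on log2(value + 1), without covariates. Alternatives were edgeR 4.0.16 and DESeq2 1.42.0 on the recovered hits, other pseudocounts, minimum means and scaling, study number as a covariate, and, added after the data were seen, fits without 4 libraries or each mouse. Within genotype, Pearson's r and Spearman's rho had two-sided permutation P (100000 resamples). *Prl* was not analysed here and *Gh* had no pooled correlation, so the planned families were smaller, with 42 correlations, 42 relations and 8 tests of spread. Genes named were the members, up to 4 genes of a list by mean level, those leading or closing a list by rank correlation, the 5 most like a member (1 of which is not reported here), and genes said in the text to be chosen after their values were seen. The scripts were tested on simulated data and used Python 3.11.15, scipy 1.17.1 and R 4.3.3.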

Additional observations from a re-analysis of the deposited data

How the results depend on the processing

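No paired analysis was possible because the labels give the mice no replicate numbers that the genotypes share. The count of 1 marker called lower in *cast/cast* was 0 with study number as a covariate and 0 to 1 with each mouse left out, and it was 1 under every other setting tried. The markers with no call kept none under any setting, but some signs turned, with unadjusted P of 0.159 or more. With study number as a covariate the log2 fold change of *Ttr* was -0.0035. Without the 4 libraries that stood apart *Gh* was 0.21 and *Prkcd* -0.016. *Prkcd* was also -0.047 with libraries rescaled to the same total, -0.23 with edgeR and -0.21 with DESeq2, and *Kcnj13* was 1.11 with edgeR. The correlation of *Kcnj13* and *Tcf7l2* in *cast/cast* was -0.063 without the 4 libraries, and that of *Tcf7l2* and *Prkcd* in *cast/cast* was -0.18 when rescaled. Rescaling raised the pairs of 1 tissue past adjustment in *b6/b6* from 0 to 1. A pseudocount of 5 lowered the wide markers in *b6/b6* from 7 to 4, since it is added to both values. The cause of the other changes was not tested. Rescaling moved the median log2 fold change of all genes from -0.02 to -0.11, so its values are to be read against that shift. Over all genes, 66 were called higher and 142 lower, against 43 and 187 when rescaled, 60 and 331 with edgeR, 82 and 313 with DESeq2 and 80 and 232 with study number. Levels of a few hits, as in *Folr1* and much of *Gh*, are limited by depth, and a value of 0 allows up to 3 hits in a library.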
